A study of Homo sapiens with 24 samples.

Results

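The p53 target and regulator genes were followed through 4 RNA-seq experiments with OE33, a cell line from a human esophageal adenocarcinoma. The group holds 32 genes of the 61860 in each count table, chosen by name from the known network around p53: 5 regulators and relatives, 6 genes of arrest and growth, 4 of DNA repair, 10 of apoptosis, 6 of metabolism and 1 ligand. Each experiment had 3 treated and 3 control libraries, so 24 libraries were used. In the first, male BALB/c-nu nude mice, bought at 4 weeks of age, ate chow rich in fat (HFD) or normal chow (ND) for 8 weeks, then received OE33 cells, and the tumors were taken 3 weeks later on the same diet. In the second, OE33 cells carried a plasmid for HA-tagged TRIM15 (HA-TRIM15), a ubiquitin ligase of the TRIM family, or the empty vector (EV) for 48 h. In the other two, cells carried a short hairpin RNA against the transcription factor YY2 (shYY2) or against the mitochondrial protein FOXRED1 (shFOXRED1), each with an shControl of its own, for 72 h. Which of the study's hairpins was sequenced was not stated, and nude mice lack mature T cells, so the tumors grew without T-cell immunity.

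p53 is a transcription factor that is stabilized after DNA damage and other stress, and it then switches on genes that stop the cell cycle, repair DNA, start apoptosis and adjust metabolism. MDM2, itself a p53 target, marks p53 for degradation, MDM4 blocks its activity, the phosphatase PPM1D reverses the damage signal, and the ARF product of CDKN2A restrains MDM2. OE33 is known to carry a mutant p53, many of these genes also answer to other factors, and no p53 protein was measured here. The names of the groups therefore say what the genes are known for and not how active p53 was.

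Libraries held 14299807 to 45994561 counts. The targeted genes moved as labelled. TRIM15 had 111, 130 and 181 counts with HA-TRIM15 and 0 in every EV library, and it had 14, 12 and 24 counts in the HFD tumors and 1, 0 and 0 in the ND tumors. YY2 had 11, 12 and 11 counts with shYY2 and 43, 40 and 46 in its control. FOXRED1 had 183, 207 and 129 counts with shFOXRED1 and 322, 259 and 254 in its control. All 7 epithelial marker genes were read in every group, with a summed level of 10958 to 16406 in counts-per-million (CPM). The 4 endothelial markers summed to at most 0.889 and the 4 adipocyte markers to at most 1.46 CPM in any library. The 6 fibroblast markers summed to 10.5 to 43.9, nearly all of it COL1A1, and the 5 leukocyte markers to 5.28 to 16.4, nearly all of it ITGAM. COL1A1 and the fibroblast sum were higher with shYY2 (42.4 to 43.9) than in its control (10.5 to 11.2). The fibroblast sum was also higher with shFOXRED1 (38.4 to 41.8) than in its control (24.2 to 25.5) and lower in HFD tumors (23.7 to 27.0) than in ND tumors (30.5 to 33.5). The part of these markers in the results was not tested. shFOXRED1 replicate 3 stood apart, with a chi-square per gene of 8.09 and 7.01 against the other two libraries of its group, where those 2 gave 2.15 against each other. A lower value in such bulk libraries can come from fewer cells with the transcript or from less of it per cell, and these cannot be told apart.

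The promoters of the members are shown first, because p53 is known to act by binding near the genes it switches on. It binds a pair of 10-base half-sites. RefSeq promoter windows (GRCh38.p14, from 250 bases before to 50 bases after each annotated start) were searched for the p53 half-site consensus, which reads the same on both strands. Of the 32 members, 27 had at least 1 window. GADD45A, RRM2B, TNFRSF10B, PHLDA3 and TP53INP1 had none, and sites outside the windows were not searched for any member. A half-site that matched in full was found for 9 members, and 8.06% of all genes with a window had one. A pair with up to 13 bases between its half-sites, the central C and G of both kept and at most 2 mismatches in all, was found for 7 members, and 3.62% of all genes had such a pair. DDB2 alone among the members had a pair with 0 mismatches, a match that 0.0366% of all genes had. These 7 pairs are given with up to 20 bases on either side, 5′ to 3′ on the strand of the gene, with the half-sites in capitals.
DDB2 chr11:47214959-47215003 + strand: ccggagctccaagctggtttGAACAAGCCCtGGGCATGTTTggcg
MDM2 chr12:68808903-68808962 + strand: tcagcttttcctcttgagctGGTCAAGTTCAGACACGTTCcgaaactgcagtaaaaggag
FAS chr10:88991289-88991348 + strand: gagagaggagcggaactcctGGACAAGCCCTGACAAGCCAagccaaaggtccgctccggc
AEN chr15:88621286-88621345 + strand: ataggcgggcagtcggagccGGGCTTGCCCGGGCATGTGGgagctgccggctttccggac
TP73 chr1:3690576-3690635 + strand: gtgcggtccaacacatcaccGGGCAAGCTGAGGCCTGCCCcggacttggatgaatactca
FDXR chr17:74872976-74873045 - strand: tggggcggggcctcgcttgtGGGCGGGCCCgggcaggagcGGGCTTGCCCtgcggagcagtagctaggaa
ABHD4 chr14:22598254-22598323 + strand: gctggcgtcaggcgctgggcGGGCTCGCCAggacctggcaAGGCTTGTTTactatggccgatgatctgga
The DDB2 pair began at base 6 after an annotated start, and the FAS pair 122 bases before an annotated start. The MDM2 pair began 94 bases before the start of a transcript from the internal promoter. Every annotated start of a gene had its own window, and the pair with the fewest mismatches was kept. The start beside a pair, for FAS and TP73 among others, need not be the first or main start of the gene. In the comparisons that follow, the called genes among these 7 moved in both directions in the HFD, HA-TRIM15 and shYY2 experiments. With shFOXRED1 the 4 that were called (DDB2, MDM2, FAS and AEN) were lower, where 19.7% of all genes were lower and 16.8% higher. These are few genes, and a link between the pairs and the direction was not tested. A match in these letters does not show that p53 bound there.

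In all 4 experiments 30 of the 32 members passed the filter on low counts. EDA2R, a TNF receptor family member, had 0 counts in all 24 libraries, which allows up to 3 counts in a library, and SPATA18, a gene of mitochondrial quality control, had at most 2 counts. For the other 30, p-values came from the quasi-likelihood test of edgeR and carry a Benjamini-Hochberg adjustment over every gene that experiment tested. A gene was called higher or lower at an adjusted p under 0.05. Levels are in CPM, and differences are log2 fold changes of treated over control with their standard error. Of the 30 members, 29 were called in at least 1 experiment and 6 in all 4 (AEN, BTG2, CDKN1A, MDM2, TNFRSF10B and TP53INP1), against 90.6% and 6.79% of the 14519 genes tested in all 4 experiments. The polymerase gene POLH was called in none. For AEN and TP53INP1 the HA-TRIM15 call was lost with DESeq2's Wald test and when any of 5 of the 6 libraries was left out. The direction was not fixed: 9 members were higher wherever they were called, 6 were lower wherever they were called, and 14 were higher in one experiment and lower in another, where the shares of all those genes were 24.9%, 26.9% and 38.7%.

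**Figure D1:**
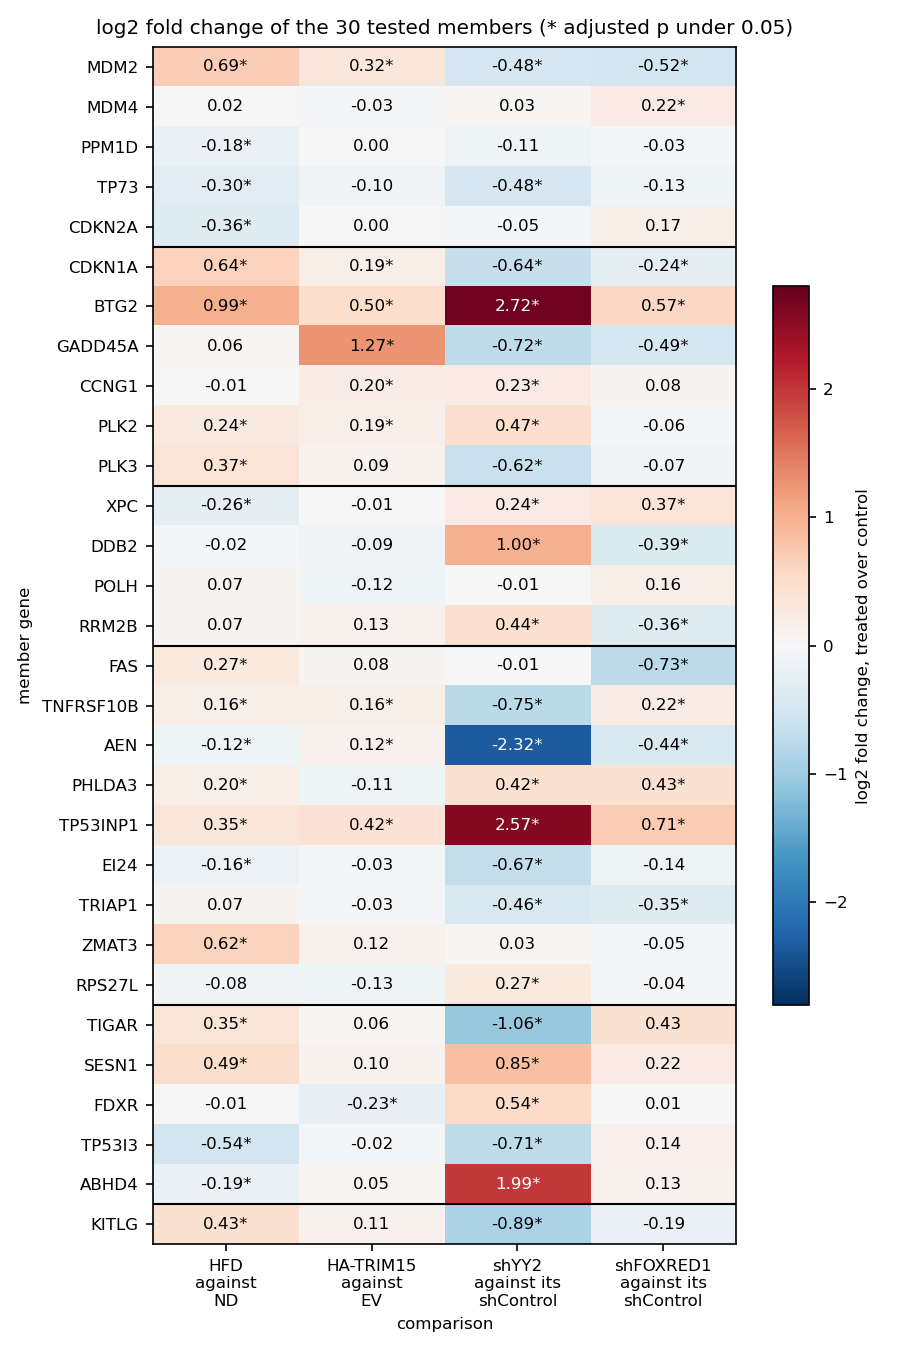
Log2 fold change of treated over control for the 30 tested members (rows, grouped by role) in the 4 comparisons (columns), with an asterisk at an adjusted p under 0.05. BTG2 and TP53INP1 were higher in all 4 columns, and CDKN1A and MDM2 were higher in the first 2 and lower in the last 2.

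In the HFD tumors, CDKN1A, MDM2, BTG2, ZMAT3 and SESN1 were higher than in the ND tumors, and TP53I3, CDKN2A and TP73 were lower. Of the 30 members, 13 rose and 8 fell, which is 43.3% and 26.7% of them, where 25.6% of all genes tested rose and 23.9% fell. The median log2 fold change of the members was 0.07, and that of all genes was -0.01. The HFD and ND libraries did not overlap for 21 members (70%, against 56.2% of all genes). Most changes were small: 4 members rose by at least 1.5-fold (BTG2, MDM2, CDKN1A and ZMAT3) and 0 fell by as much, against 5.03% and 6.94% of all genes. Without ND replicate 2 the number of members that fell dropped from 8 to 5, as the calls of ABHD4, AEN and PPM1D were lost.

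With HA-TRIM15, GADD45A more than doubled, and smaller rises were seen for BTG2, TP53INP1, MDM2, CDKN1A, CCNG1, PLK2, TNFRSF10B and AEN. Of the 30 members 9 rose (30%, against 12.5% of all genes) and 1, FDXR, fell (3.3%, against 9.53%). The members' median was 0.07, and that of all genes was -0.01. The 2 groups did not overlap for 18 members (60%, against 37.7% of all genes). GADD45A was the 1 member that rose by at least 1.5-fold and 0 fell by as much, against 1.33% and 0.553% of all genes. Without EV replicate 3 the members that rose numbered 6 and those that fell 0: the calls of AEN, CCNG1, TP53INP1 and FDXR were lost.

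With shYY2 the members split. BTG2, TP53INP1, ABHD4 and DDB2 rose by 2-fold or more, AEN and TIGAR fell by more than 2-fold, and MDM2, CDKN1A, GADD45A, TNFRSF10B and KITLG also fell. Of the 30 members 12 rose and 12 fell, 40% in either direction, against 36.8% and 38.1% of all genes. This share was close to that of all genes, and the members' median of -0.01 was close to the -0.01 of all genes. The groups did not overlap for 24 members (80%, against 76.3% of all genes). At 1.5-fold or more 5 members rose and 9 fell, where 20.2% and 19.4% of all genes did.

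With shFOXRED1, FAS, MDM2, GADD45A, AEN, DDB2, RRM2B, TRIAP1 and CDKN1A were lower than in the shControl of that experiment, and TP53INP1, BTG2, PHLDA3, XPC, MDM4 and TNFRSF10B were higher. That is 8 of the 30 members lower (26.7%, against 19.7% of all genes) and 6 higher (20%, against 16.8%). The members' median of -0.03 lay beside 0.01 for all genes. The groups did not overlap for 17 members (56.7%, against 46.7% of all genes). At 1.5-fold or more, 1 member rose (TP53INP1) and 1 fell (FAS), against 5.75% and 5.07% of all genes. Without shFOXRED1 replicate 3, the library that stood apart from its group, 7 members were higher and 10 lower: CDKN2A joined the first, EI24 and KITLG the second, and every member called with all 6 libraries was called in the same direction.

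Among the regulators, MDM2, the ubiquitin ligase that ends the p53 response, was called in every experiment. It stood at 79.2, 77.6 and 83.4 CPM in the 3 HFD libraries and 48.6, 48.03 and 53.7 CPM in the 3 ND libraries. All HFD libraries were above all ND libraries, with a log2 fold change of 0.69 ± 0.05 (adjusted p = 5.5e-09). HA-TRIM15 cells had 91.6, 96.7 and 98.7 CPM and EV cells 79.4, 77.4 and 73.8 CPM, again without overlap and higher in the treated cells, by 0.32 ± 0.04 (adjusted p = 0.00011). The direction was the opposite in both knockdowns. shYY2 cells had 61.6, 62.7 and 64.0 CPM and their controls 88.8, 84.5 and 88.7 CPM, a change of -0.48 ± 0.04 (adjusted p = 7.2e-09). shFOXRED1 cells had 57.9, 59.4 and 69.2 CPM and their controls 89.0, 87.7 and 89.6 CPM, a change of -0.52 ± 0.07 (adjusted p = 2e-05). Replicate 3 was the highest of the shFOXRED1 libraries and still lay below every control, and without it the change was -0.60.

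The p53 relative TP73, which can bind the same sites as p53, never rose. Its levels were 13.0, 13.5 and 12.8 CPM in the HFD tumors and 15.0, 17.6 and 15.2 CPM in the ND tumors. The groups did not overlap, and TP73 fell, with a log2 fold change of -0.30 ± 0.08 (adjusted p = 0.004). It also fell with shYY2, from 13.7, 15.0 and 14.0 CPM in the control to 9.49, 10.7 and 10.4 CPM, with a log2 fold change of -0.48 ± 0.08 (adjusted p = 9.4e-05). With HA-TRIM15 it was at 12.9, 12.2 and 12.8 CPM and with EV at 14.1, 13.4 and 13.2 CPM, close values that did not overlap but did not pass the test (-0.10 ± 0.08, adjusted p = 0.40). With shFOXRED1 it was at 9.54, 8.65 and 6.23 CPM and in the control at 10.4, 7.50 and 8.83 CPM. These overlapped, and the difference of -0.13 ± 0.16 did not pass (adjusted p = 0.59).

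The other regulators moved little. CDKN2A, which encodes the cell cycle inhibitor p16 and ARF, was at 156, 164 and 165 CPM in the HFD tumors and 195, 229 and 199 CPM in the ND tumors. ND replicate 2 was the highest, all 3 ND libraries lay above the HFD libraries, and CDKN2A fell with the diet, with a log2 fold change of -0.36 ± 0.05 (adjusted p = 1.8e-05). In the cultured experiments its log2 fold changes lay between -0.05 (shYY2) and 0.17 (shFOXRED1, adjusted p = 0.052) and did not pass, although without shFOXRED1 replicate 3 the latter was 0.26 and did pass. MDM4, a relative of MDM2 that binds p53, was called with shFOXRED1, where it stood at 63.1, 64.8 and 69.8 CPM against 54.0, 56.1 and 59.5 CPM in the control. It rose there by 0.22 ± 0.07 (adjusted p = 0.017), and the call was lost without control replicate 1 or 2. PPM1D, a phosphatase that switches off the damage signal, was called in the HFD tumors, at -0.18 ± 0.06 (adjusted p = 0.026), and this call was lost without HFD replicate 3, ND replicate 1 or ND replicate 2.

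Of the genes that arrest growth, CDKN1A, the cyclin-dependent kinase inhibitor p21 and the best known p53 target, followed MDM2. In the HFD tumors it was at 309.9, 305 and 301 CPM, and in the ND tumors at 199.6, 197 and 192 CPM. It rose by 0.64 ± 0.03 (adjusted p = 2.6e-10), and the groups were far apart relative to their spread. HA-TRIM15 cells had 237, 216 and 221 CPM against 197, 193 and 202 CPM with EV, a smaller rise of 0.19 ± 0.04 (adjusted p = 0.0024) without overlap. With shYY2 CDKN1A was at 135, 136 and 134 CPM, below 212, 211 and 207 CPM in the control. It fell there, with a change of -0.64 ± 0.03 (adjusted p = 9.4e-12). With shFOXRED1 it was at 145, 143 and 126 CPM, below 165, 168 and 156 CPM in the control, and it fell by less, with a change of -0.24 ± 0.06 (adjusted p = 0.0053). Replicate 3 was the lowest shFOXRED1 library, and without it the change was -0.18.

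BTG2, an antiproliferative gene that slows entry into S phase, rose in every experiment. It was at 45.9, 39.8 and 43.2 CPM in HFD tumors and 21.6, 20.6 and 23.6 CPM in ND tumors, a change of 0.99 ± 0.06 (adjusted p = 1.8e-09). In HA-TRIM15 cells it was at 7.31, 8.71 and 6.95 CPM and in EV cells at 5.18, 5.54 and 5.43 CPM, a change of 0.50 ± 0.11 (adjusted p = 0.0048). The shYY2 libraries lay far above their controls, at 70.8, 68.9 and 71.4 CPM against 10.9, 10.3 and 10.7 CPM in the control. That change, 2.72 ± 0.05 (adjusted p = 7.5e-16), was the highest log2 fold change of any member in any of the 4 comparisons. With shFOXRED1 BTG2 was at 8.49, 9.14 and 9.17 CPM against 6.82, 6.04 and 5.10 CPM, a change of 0.57 ± 0.15 (adjusted p = 0.0052). None of these pairs of groups overlapped.

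GADD45A, a stress sensor that takes part in the G2/M checkpoint and in repair, showed the strongest member response to HA-TRIM15. It was at 138, 135 and 126 CPM with HA-TRIM15 and 54.5, 55.5 and 55.9 CPM with EV, a rise of 1.27 ± 0.04 (adjusted p = 4.2e-11). It was lower in both knockdowns. With shYY2 it was at 83.1, 87.2 and 82.2 CPM against 137, 143 and 136 CPM, a change of -0.72 ± 0.03 (adjusted p = 2.2e-11). In shFOXRED1 cells GADD45A was at 15.8, 15.0 and 12.5 CPM against 19.1, 20.9 and 21.2 CPM, a change of -0.49 ± 0.11 (adjusted p = 0.0017). In the tumors the levels overlapped, at 89.2, 92.9 and 87.8 CPM with HFD and 88.0, 84.3 and 87.2 CPM with ND, and the difference of 0.06 ± 0.04 did not pass (adjusted p = 0.24).

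**Figure D2:**
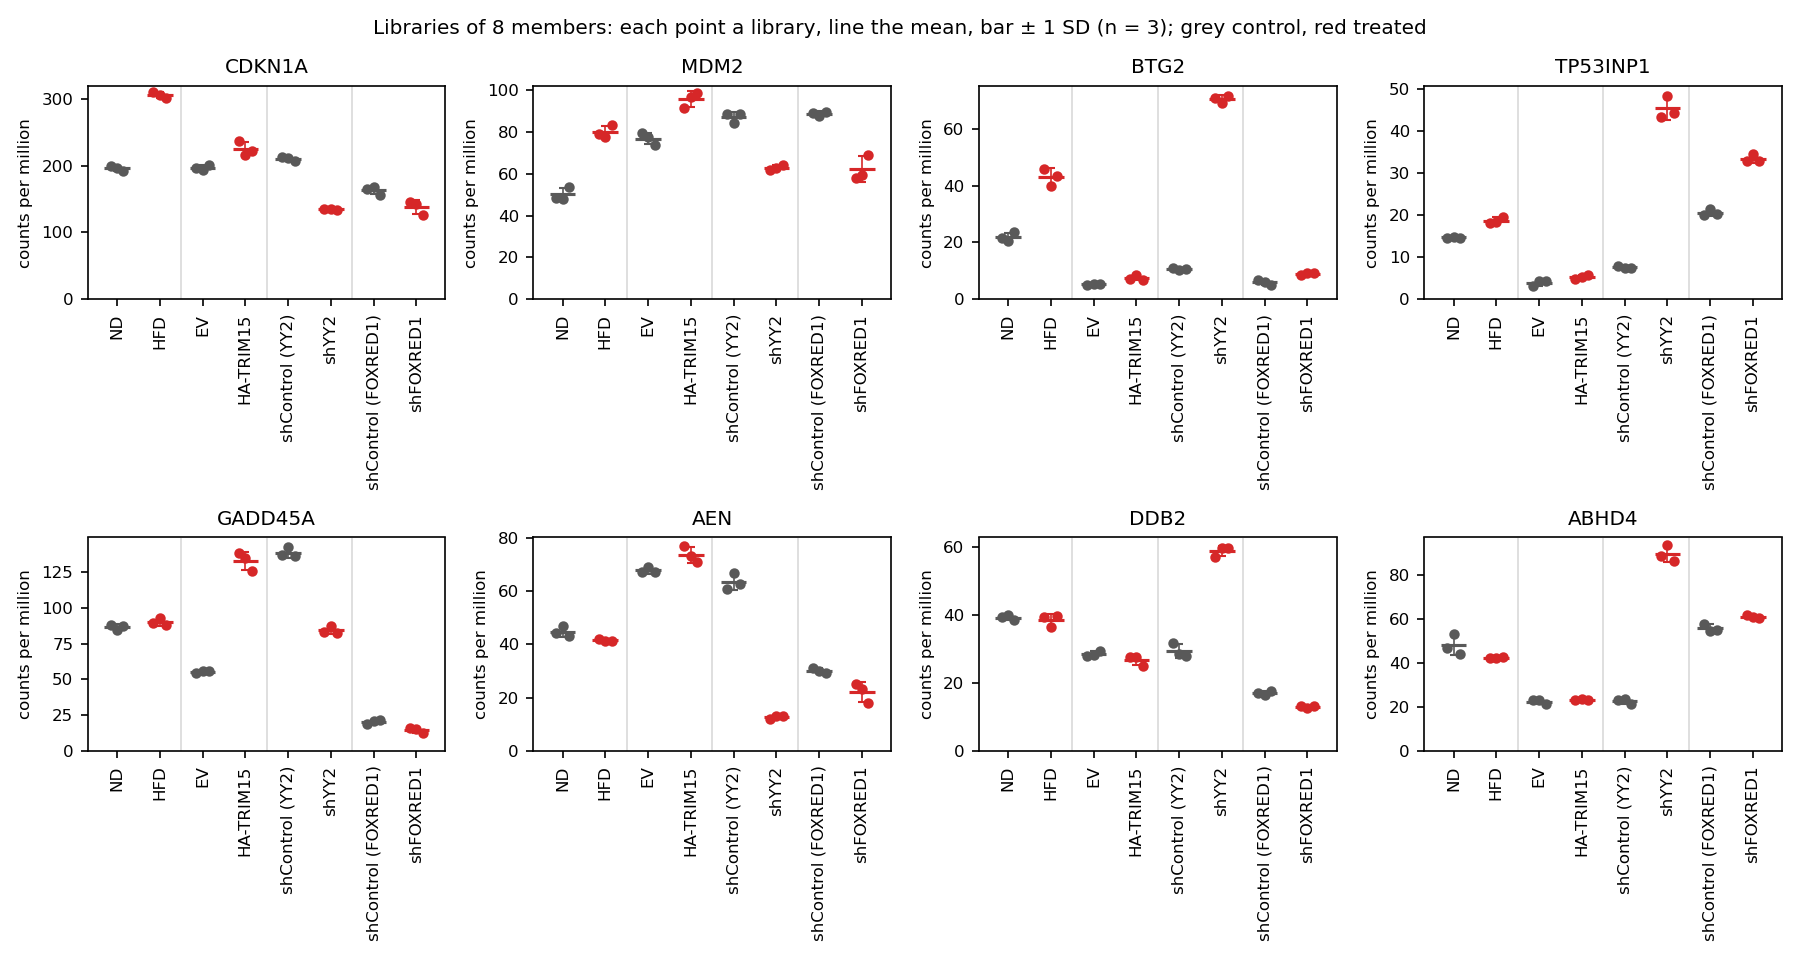
CPM (vertical axes, from 0) of 8 members in every library of the 8 groups (horizontal axes), with the mean of 3 libraries as a line and 1 SD as a bar, control groups in grey and treated groups in red. AEN fell to 11.9 to 13.0 with shYY2 while BTG2, TP53INP1, DDB2 and ABHD4 stood above every control library of that experiment.

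The polo-like kinases and CCNG1, the cyclin G1 gene, moved by less. PLK2, a kinase induced by stress, was at 187, 189 and 185 CPM with HA-TRIM15 and 169.5, 161 and 160.3 CPM with EV, a rise of 0.19 ± 0.03 (adjusted p = 0.0011) without overlap. It rose as well in the HFD tumors (0.24 ± 0.04) and with shYY2 (0.47 ± 0.03), and with shFOXRED1 it was at -0.06 ± 0.06 and did not pass. PLK3, a kinase of the stress response, was at 25.3, 26.7 and 24.4 CPM in the HFD tumors and 18.6, 20.3 and 19.5 CPM in the ND tumors. It rose there by 0.37 ± 0.06 (adjusted p = 7.3e-05), while with shYY2 it fell, with a change of -0.62 ± 0.08. CCNG1 was at 68.2, 72.7 and 78.8 CPM with HA-TRIM15 and 63.9, 65.5 and 61.8 CPM with EV, a rise of 0.20 ± 0.05 (adjusted p = 0.012) that was lost without EV replicate 3. With shYY2 CCNG1 rose by 0.23 ± 0.04.

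Of the 4 DNA repair genes 3 rose and 0 fell with shYY2, where 36.8% of all genes rose and 38.1% fell. With shFOXRED1 1 rose and 2 fell, where 16.8% and 19.7% of all genes did. XPC was the one called in the HFD tumors, where 25.6% of all genes rose and 23.9% fell. DDB2, which recognizes ultraviolet lesions for nucleotide excision repair, was at 57.1, 59.9 and 59.8 CPM with shYY2 and 31.7, 28.6 and 28.04 CPM in the control. The treated libraries lay well above the controls, a rise of 1.00 ± 0.05 (adjusted p = 4.7e-11). With shFOXRED1 it was at 13.3, 12.5 and 13.3 CPM against 17.1, 16.5 and 17.7 CPM, and here it fell, with a change of -0.39 ± 0.10 (adjusted p = 0.0063). RRM2B, the p53-induced subunit of ribonucleotide reductase, also moved in opposite directions: it rose with shYY2, by 0.44 ± 0.05, and with shFOXRED1 it was at 39.9, 38.9 and 45.8 CPM against 52.3, 47.6 and 59.1 CPM. The shFOXRED1 libraries all lay below the controls, a change of -0.36 ± 0.09 (adjusted p = 0.0037). XPC, the damage sensor of nucleotide excision repair, was at 28.9, 29.6 and 26.1 CPM with shFOXRED1 and 23.0, 21.7 and 20.9 CPM in the control, a rise of 0.37 ± 0.09 (adjusted p = 0.0037). It also rose with shYY2 (0.24 ± 0.06) and fell in the HFD tumors (-0.26 ± 0.06), but 39% of its exonic bases overlap genes on the other strand and the strand setting of the counts was not given. POLH, the polymerase that copies past ultraviolet lesions, stayed between -0.12 and 0.16 and was called nowhere.

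Of the apoptosis genes TP53INP1, a stress-induced cofactor of p53, rose in every experiment. It was at 18.1, 18.4 and 19.6 CPM in HFD tumors and 14.7, 14.9 and 14.7 CPM in ND tumors, a change of 0.35 ± 0.06 (adjusted p = 0.00026). With HA-TRIM15 it was at 4.92, 5.20 and 5.82 CPM and with EV at 3.16, 4.31 and 4.35 CPM. The groups did not overlap and the change was 0.42 ± 0.14 (adjusted p = 0.045), a call that leaving out any of 5 of the 6 libraries ended. With shYY2 it was at 43.5, 48.5 and 44.4 CPM against 7.91, 7.44 and 7.56 CPM, far above the control, a change of 2.57 ± 0.07 (adjusted p = 2.6e-14). The shFOXRED1 libraries were at 32.9, 34.6 and 33.0 CPM against 20.0, 21.4 and 20.3 CPM, a change of 0.71 ± 0.08 (adjusted p = 3.8e-06).

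AEN, an exonuclease that degrades DNA in apoptosis, had the deepest fall of any member in the 4 comparisons. With shYY2 it was at 11.9, 13.0 and 13.0 CPM against 60.9, 66.9 and 62.7 CPM in the control, a change of -2.32 ± 0.06 (adjusted p = 1.4e-14). shFOXRED1 cells had AEN at 25.1, 23.3 and 18.0 CPM against 31.0, 29.9 and 29.2 CPM. It fell there by less, with a change of -0.44 ± 0.11 (adjusted p = 0.0036), and with -0.32 without replicate 3, the lowest library. With HA-TRIM15 AEN was at 77.0, 73.3 and 71.0 CPM against 67.1, 69.2 and 67.2 CPM with EV, a small rise of 0.12 ± 0.04 (adjusted p = 0.046) that was lost when any of 5 of the 6 libraries was left out. It was lower in the HFD tumors, at -0.12 ± 0.05 (adjusted p = 0.044), and that call was lost when any of 5 of the 6 libraries was left out.

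The death receptors FAS and TNFRSF10B took different courses. FAS, the receptor of FAS ligand, was at 61.3, 67.6 and 64.4 CPM in HFD tumors and 54.9, 54.2 and 50.2 CPM in ND tumors, a rise of 0.27 ± 0.05 (adjusted p = 0.00015) without overlap. With shFOXRED1 it was at 15.3, 17.4 and 19.2 CPM against 27.1, 29.9 and 29.02 CPM, the deepest fall of a member in that experiment, -0.73 ± 0.10 (adjusted p = 1.8e-05). With shYY2 the FAS levels overlapped and the difference was -0.01 ± 0.04, and with HA-TRIM15 it was 0.08 ± 0.05, neither past the test. TNFRSF10B, the TRAIL receptor DR5, was at 354, 342 and 355 CPM with HA-TRIM15 and 313, 315 and 316 CPM with EV, a rise of 0.16 ± 0.03 (adjusted p = 0.002). With shYY2 it was at 187, 188 and 195 CPM, below 323, 311 and 325 CPM in the control, a change of -0.75 ± 0.03 (adjusted p = 2.8e-12). It rose in the HFD tumors (0.16 ± 0.03) and with shFOXRED1 (0.22 ± 0.05).

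The remaining apoptosis genes showed 1 clear diet response. ZMAT3, an RNA-binding zinc finger protein induced by p53, was at 28.1, 32.2 and 28.7 CPM in HFD tumors and 20.5, 19.0 and 18.1 CPM in ND tumors, a rise of 0.62 ± 0.06 (adjusted p = 7.4e-07). In the 3 cultured experiments ZMAT3 lay between -0.05 and 0.12 and was not called. TRIAP1, an inhibitor of apoptosis, was at 12.5, 12.7 and 15.7 CPM with shFOXRED1 and 16.6, 17.6 and 17.9 CPM in the control. It fell with a log2 fold change of -0.35 ± 0.11 (adjusted p = 0.022), a call that was lost without any of 4 of the 6 libraries, and it fell with shYY2 (-0.46 ± 0.07). PHLDA3, a repressor of AKT, rose in the HFD tumors (0.20 ± 0.04), with shYY2 (0.42 ± 0.04) and with shFOXRED1 (0.43 ± 0.11), though 19.1% of its exonic bases overlap another gene on its strand. With shFOXRED1 the groups overlapped, with replicate 3 below 2 of the controls, and without it the change was 0.59. With DESeq2's Wald test the shFOXRED1 call of PHLDA3 was lost, at 0.41. EI24, a gene of the endoplasmic reticulum, fell in the HFD tumors (-0.16 ± 0.04) and with shYY2 (-0.67 ± 0.03). RPS27L, a ribosomal protein-like gene with the close paralog RPS27, rose with shYY2 (0.27 ± 0.07) and was not called elsewhere.

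Of the 5 metabolic genes tested, 3 rose and 2 fell with shYY2, where 36.8% and 38.1% of all genes did. In the HFD tumors 2 rose and 2 fell, where 25.6% and 23.9% of all genes did. ABHD4, a lipase that makes precursors of N-acylethanolamines, was at 88.7, 93.3 and 86.3 CPM with shYY2 and 23.2, 23.3 and 21.2 CPM in the control. Its rise of 1.99 ± 0.05 (adjusted p = 1.2e-14) was the third highest of the members there. SESN1, a sestrin that restrains mTOR complex 1, was at 8.52, 10.4 and 9.20 CPM against 5.11, 4.67 and 5.80 CPM, a rise of 0.85 ± 0.12 (adjusted p = 7.5e-06). In the HFD tumors SESN1 was at 7.41, 6.66 and 7.11 CPM and in the ND tumors at 4.91, 5.13 and 5.03 CPM, again without overlap, a rise of 0.49 ± 0.09 (adjusted p = 0.00038). TIGAR, a phosphatase that slows glycolysis, was at 1.95, 3.12 and 2.22 CPM with shYY2 and 5.00, 5.20 and 5.04 CPM in the control. It fell with a log2 fold change of -1.06 ± 0.16 (adjusted p = 2.1e-05), while in the HFD tumors, at 3.33, 3.82 and 3.60 CPM against 2.96, 2.74 and 2.75 CPM, it was higher by 0.35 ± 0.12 (adjusted p = 0.028). The diet call was lost without HFD replicate 2 or 3 or ND replicate 2 or 3, and 42.6% of the exonic bases of TIGAR overlap a second gene on its strand.

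TP53I3, a quinone oxidoreductase linked to oxidative stress, was at 5.09, 4.64 and 4.51 CPM in HFD tumors and 7.53, 6.97 and 6.00 CPM in ND tumors. It fell, with the lowest log2 fold change of a member in that comparison, -0.54 ± 0.11 (adjusted p = 0.00056), and it fell with shYY2 as well (-0.71 ± 0.14). FDXR, the ferredoxin reductase of mitochondria, was at 20.5, 17.7 and 17.0 CPM with HA-TRIM15 and 22.2, 22.1 and 21.0 CPM with EV. It was lower with a log2 fold change of -0.23 ± 0.07 (adjusted p = 0.038), a call lost when any of 5 of the 6 libraries was left out, and it rose with shYY2 (0.54 ± 0.06). With shFOXRED1 none of the 5 metabolic genes was called by edgeR, where 16.8% of all genes were higher and 19.7% lower. Their log2 fold changes lay between 0.01 and 0.43, 0 had an unadjusted p under 0.05, and DESeq2 also called 0 of them. Without shFOXRED1 replicate 1, however, TIGAR was called higher, at 0.65. ABHD4 was also lower in the HFD tumors (-0.19 ± 0.06), a call that ended without ND replicate 2. KITLG, the ligand of the receptor KIT, was at 39.9, 39.7 and 38.6 CPM in HFD tumors and 28.1, 30.7 and 28.3 CPM in ND tumors, a rise of 0.43 ± 0.05 (adjusted p = 2.5e-06). With shYY2 it was at 29.2, 33.6 and 33.8 CPM against 60.0, 59.4 and 59.8 CPM, far below the control, and it fell with a log2 fold change of -0.89 ± 0.05 (adjusted p = 2.6e-10).

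The rest of the network was described with 3 further lists: 24 genes upstream of p53 such as kinases and cofactors, 38 further genes known to be induced by p53, and 20 cell cycle genes that p53 is known to repress through p21 and the DREAM complex. Like the members, these lists were chosen with earlier results known, and beside their medians the median log2 fold changes of all genes were -0.01 (HFD), -0.01 (HA-TRIM15), -0.01 (shYY2) and 0.01 (shFOXRED1). The cell cycle genes moved mostly one way in each experiment. Among the HFD tumors 13 of 20 rose and 2 fell (65% and 10%, against 25.6% and 23.9% of all genes), the median being 0.16. CCNA2 (0.60 ± 0.04), PLK1 (0.55 ± 0.04), CDK1 (0.44 ± 0.04) and MYBL2 (0.36 ± 0.04) led the rises. CCNA2, CDK1 and PLK1 are drivers of S phase and mitosis, and MYBL2 is a transcription factor of the same program. With HA-TRIM15 1 rose and 10 fell by small amounts (5% and 50%, against 12.5% and 9.53% of all genes), with a median of -0.13. PLK1 at -0.26 ± 0.04 and CDC25C at -0.22 ± 0.07 were among the falls. With shYY2 1 rose and 16 fell (5% and 80%, against 36.8% and 38.1% of all genes), with a median of -0.43. CDC25A, the phosphatase that opens S phase, fell the most, with a log2 fold change of -2.62 ± 0.07, before MYBL2 (-1.80 ± 0.04) and FOXM1 (-0.96 ± 0.04). With shFOXRED1 19 of 20 fell (95%, against 19.7% of all genes) and the remaining gene was not called, with a median of -0.69. MAD2L1 (-1.01 ± 0.09), BUB1 (-0.93 ± 0.11) and CENPF (-0.85 ± 0.07) led the fall.

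The direction of CDKN1A in each experiment is given here beside these counts. A link between CDKN1A and these genes was not tested. CDKN1A rose in the HFD tumors while 13 of the 20 cell cycle genes rose. It rose with HA-TRIM15 while 10 of them fell. In both knockdowns CDKN1A fell while 16 and 19 of the 20 fell.

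Of the further induced targets 36 of 38 were tested in every experiment. Of these, 17 rose and 9 fell with HFD (47.2% and 25%, against 25.6% and 23.9% of all genes), with a median of 0.09. SFN, which encodes the checkpoint protein 14-3-3 sigma, rose by 0.85 ± 0.04, whereas the stress cytokine gene GDF15 (-1.34 ± 0.04) and the matrix protein gene THBS1 (-0.79 ± 0.04) fell. With HA-TRIM15 12 rose and 7 fell (33.3% and 19.4%, against 12.5% and 9.53% of all genes), with a median of 0.03. ATF3, a stress-induced transcription factor, rose by 1.82 ± 0.04, GADD45B, the paralog of GADD45A, by 1.17 ± 0.07, and the proapoptotic BH3-only genes PMAIP1 (NOXA) by 0.91 ± 0.04 and BBC3 (PUMA) by 0.48 ± 0.10. With shYY2 18 rose and 11 fell (50% and 30.6%, against 36.8% and 38.1% of all genes), with a median of 0.20. GADD45B (1.51 ± 0.04), THBS1 (1.21 ± 0.04) and ACER2 (1.08 ± 0.12) were among the rises and TNFRSF10A (-1.12 ± 0.06) among the falls. With shFOXRED1 9 rose and 11 fell (25% and 30.6%, against 16.8% and 19.7% of all genes), with a median of 0.0006. TGFA (-0.88 ± 0.06) was among the falls and ACER2 (0.85 ± 0.07) and DRAM1 (0.72 ± 0.06) among the rises.

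The upstream genes were mostly lower with shYY2, 15 of 24 against 4 higher, with a median of -0.37. That is 62.5% lower and 16.7% higher, against 38.1% and 36.8% of all genes. The checkpoint kinase genes CHEK1 (-1.33 ± 0.05) and ATR (-1.04 ± 0.03) fell the most, and PPP1R13L, an inhibitor of p53, rose by 0.81 ± 0.03. With shFOXRED1 8 of 23 fell and 5 rose (34.8% and 21.7%, against 19.7% and 16.8% of all genes). CHEK1 (-0.68 ± 0.09) and CHEK2 (-0.58 ± 0.11) were among the falls and the acetyltransferase gene CREBBP (0.50 ± 0.05) among the rises. HFD tumors had 11 that fell, such as TP63 (-0.67 ± 0.17) and HIPK2 (-0.54 ± 0.03), and 7 that rose, such as CHEK1 (0.50 ± 0.05) and COP1 (0.45 ± 0.05). These were 45.8% and 29.2% of the list, against 23.9% and 25.6% of all genes. With HA-TRIM15 3 rose, TP53BP2 (0.38 ± 0.04), RCHY1 (0.19 ± 0.06) and CREBBP (0.13 ± 0.03), and 1 fell. These were 13% and 4.3% of those tested, against 12.5% and 9.53% of all genes. CHEK1 was higher with HFD and lower in both knockdowns.

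**Figure D3:**
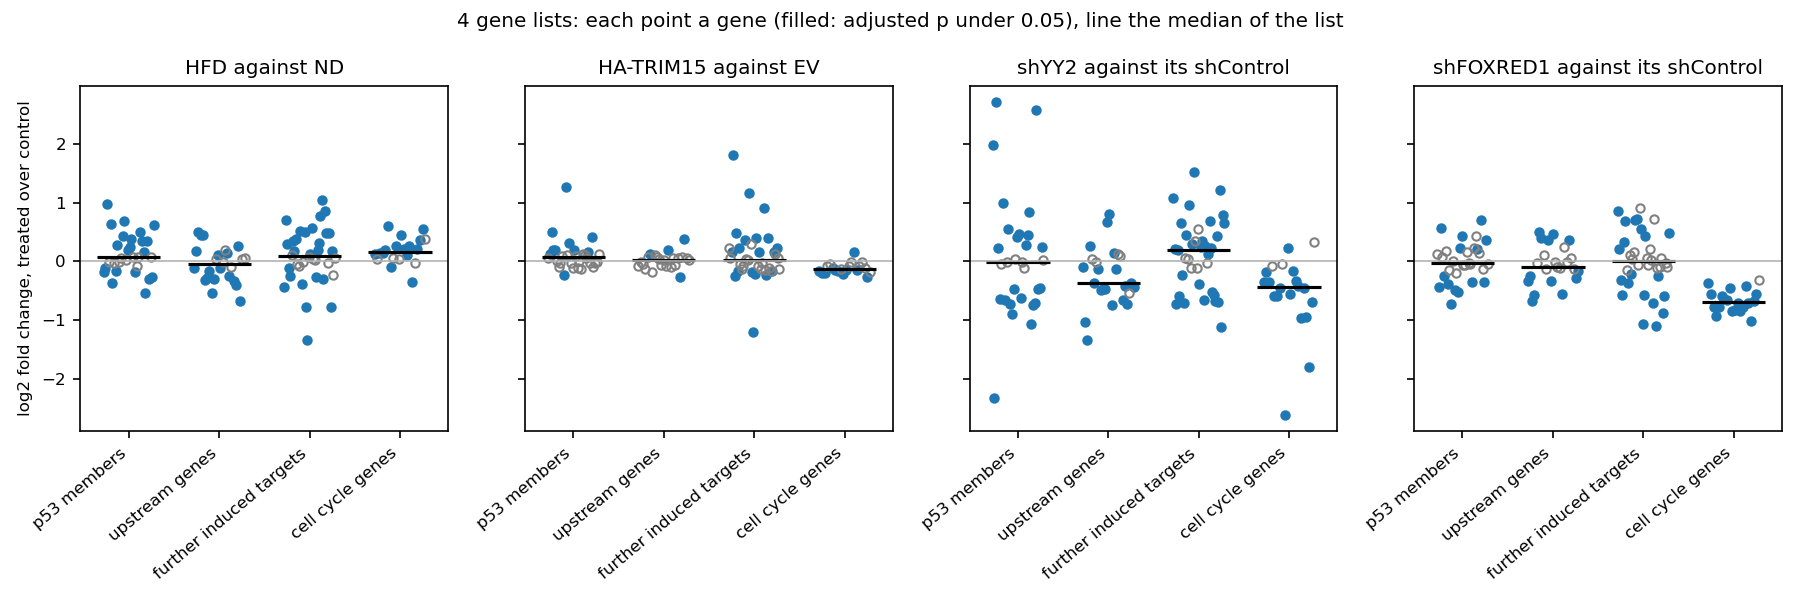
Log2 fold change (vertical axis) of each gene of 4 lists (horizontal axis) in the 4 comparisons (panels), filled where the adjusted p was under 0.05, with the median of the list as a line. The 20 cell cycle genes lay mostly above 0 in the HFD panel and nearly all below 0 in the shFOXRED1 panel, while the p53 members spread to both sides.

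Whether the members answered differently in 2 experiments was tested with 1 fit over all 24 libraries. The shYY2 and shFOXRED1 effects differed for 18 of 30 members (60%, against 55.5% of all genes). The differences, shYY2 minus shFOXRED1, were 2.20 ± 0.14 (adjusted p = 1.7e-14) for BTG2, 1.91 ± 0.11 (adjusted p = 1.7e-15) for TP53INP1 and 1.90 ± 0.08 (adjusted p = 1.4e-18) for ABHD4. DDB2 (1.44 ± 0.09, adjusted p = 1.5e-14) and RRM2B (0.84 ± 0.09, adjusted p = 3.8e-09) rose with shYY2 and fell with shFOXRED1, and TNFRSF10B (-0.92 ± 0.05, adjusted p = 1.1e-15) did the opposite. MDM2 fell in both, and its difference of 0.09 ± 0.08 (adjusted p = 0.35) did not pass the threshold. CDKN1A fell further with shYY2, with a difference of -0.36 ± 0.06 (adjusted p = 1.6e-05). GADD45A did not differ past the threshold, at -0.19 ± 0.09 (adjusted p = 0.067).

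The HA-TRIM15 and shYY2 effects differed for 22 of 30 members (73.3%, against 57.4% of all genes). CDKN1A, MDM2, GADD45A, AEN and TNFRSF10B rose with HA-TRIM15 and fell with shYY2. Their differences, HA-TRIM15 minus shYY2, were 0.79 ± 0.06 (adjusted p = 1.8e-12) for CDKN1A, 0.75 ± 0.07 (adjusted p = 3.2e-10) for MDM2, 1.95 ± 0.07 (adjusted p = 9e-21) for GADD45A, 2.41 ± 0.10 (adjusted p = 2.9e-19) for AEN and 0.87 ± 0.05 (adjusted p = 3.3e-15) for TNFRSF10B. FDXR moved the other way, at -0.81 ± 0.12 (adjusted p = 1e-06). BTG2 and TP53INP1 rose in both and further with shYY2, with differences of -2.26 ± 0.13 and -2.20 ± 0.14.

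**Figure D4:**
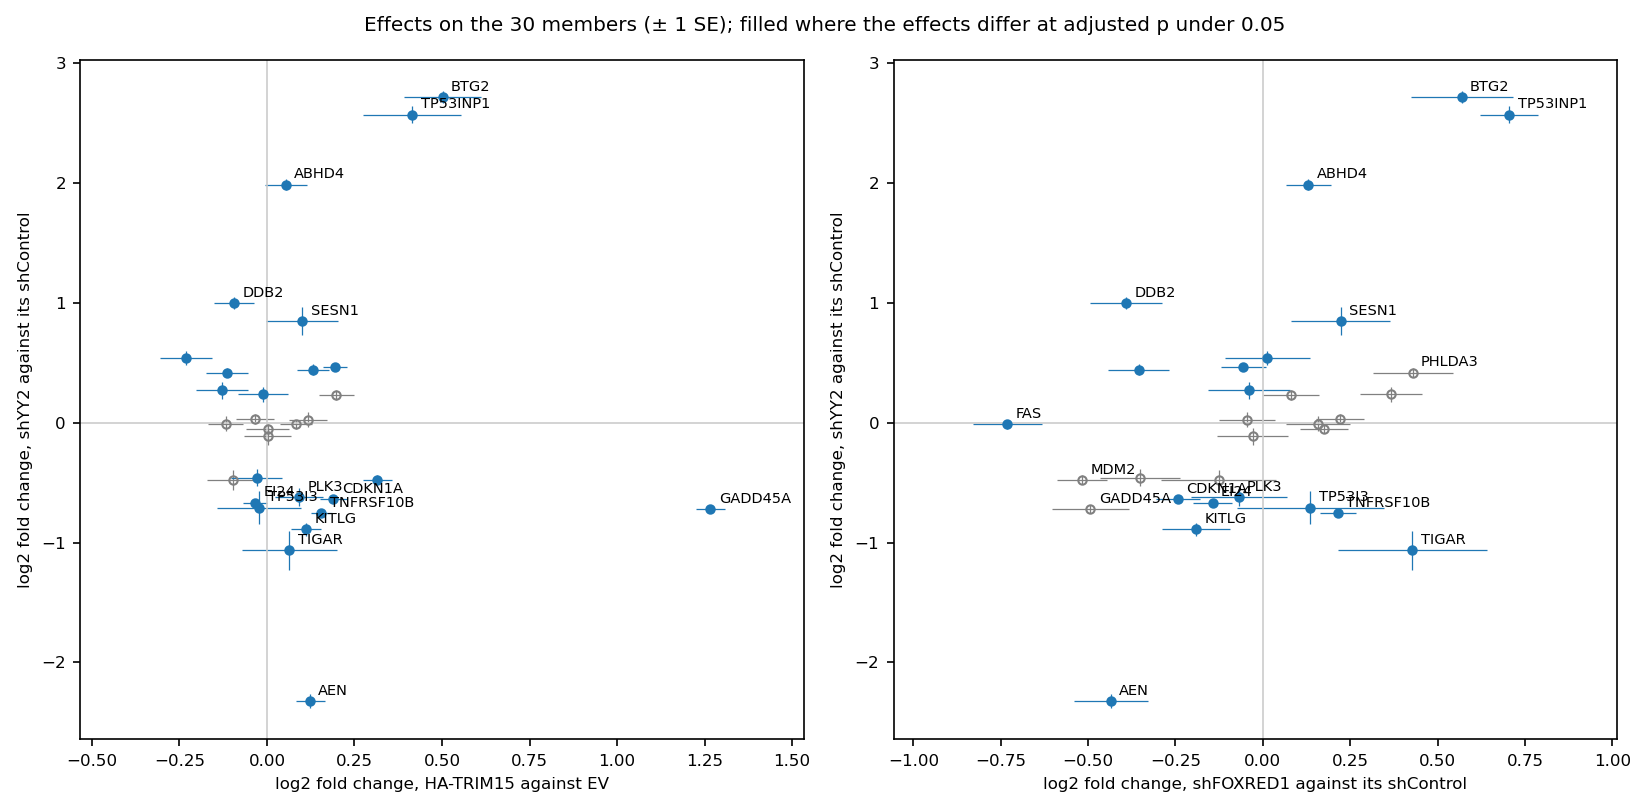
Log2 fold change with 1 SE of the 30 members with shYY2 (vertical axes) against that with HA-TRIM15 (left) and with shFOXRED1 (right), filled where the 2 effects differ at an adjusted p under 0.05. GADD45A lies at the far right of the left panel and below 0 on its vertical axis, and DDB2 lies above 0 with shYY2 and below 0 with shFOXRED1 in the right panel.

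The HFD and HA-TRIM15 effects differed for 11 of 30 members (36.7%, against 28.4% of all genes). GADD45A rose with HA-TRIM15 and was not called in the tumors, with a difference, HFD minus HA-TRIM15, of -1.20 ± 0.07 (adjusted p = 7.6e-15). CDKN1A and MDM2 rose in both and further in the tumors, by 0.45 ± 0.06 (adjusted p = 5.5e-07) and 0.38 ± 0.07 (adjusted p = 0.00016). ZMAT3 (0.51 ± 0.10, adjusted p = 0.00012) and BTG2 (0.49 ± 0.13, adjusted p = 0.0035) were also further up in the tumors, and AEN (-0.23 ± 0.08, adjusted p = 0.035) was called in opposite directions.

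The levels of the members were also described in the 4 control groups. These belong to 4 experiments, and how their libraries were spread over sequencing runs is not given. The cultured controls also differ in plasmid and time, with EV for 48 h and shControl for 72 h. Culture, plasmid, time, any batch and xenograft growth therefore cannot be told apart. Levels scaled to exon length and library size (RPKM, with GENCODE 29 exons, mean ± SD of 3 libraries) put CDKN1A and TNFRSF10B at the top when averaged over the 4 groups. CDKN1A was at 62.5 ± 1.39 in ND tumors, 67.4 ± 1.35 with EV, 69.1 ± 0.986 in the shControl of the YY2 experiment and 53.8 ± 2.28 in that of the FOXRED1 experiment. The last was below the rest, ND lay between, and EV and the YY2 control overlapped. TNFRSF10B ran from 50.9 ± 0.927 RPKM in ND tumors to 65.9 ± 1.09 in the FOXRED1 control, and its 4 groups did not overlap. Averaged in the same way, SESN1 and TIGAR were the lowest of the 30 members tested. They were at 0.953 ± 0.0180 and 0.681 ± 0.0323 RPKM in ND tumors. Within a single group TP53INP1 was also low, at 0.723 RPKM with EV.

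Between the highest and the lowest control group, 11 of the 30 members differed by at least 2-fold in mean CPM, and 6 had 4 groups that did not overlap. Of the 15228 genes with a mean of 1 CPM or more in a control group, 33.6% and 20.7% did. The members were thus close to all genes in both. GADD45A spread the most. Scaled over the 12 control libraries together, it was at 138, 143 and 137 CPM in the YY2 control and 19.3, 21.1 and 21.2 CPM in the FOXRED1 control, a ratio of 6.77 between 2 cultures with the same kind of treatment. EV cells lay between them at 56.7, 58.0 and 58.2 CPM, and ND tumors at 85.8, 81.7 and 84.7 CPM. PLK2 was at 208, 191 and 205 CPM in the YY2 control and 58.4, 60.6 and 59.8 CPM in the FOXRED1 control, lower in the latter than in any other control library. TP53INP1 went the other way, at 7.95, 7.45 and 7.58 CPM and 20.1, 21.6 and 20.3 CPM, with EV cells lowest at 3.29, 4.50 and 4.52 CPM. BTG2 was highest in ND tumors, at 21.1, 20.0 and 22.9 CPM, against 5.39, 5.78 and 5.65 CPM with EV. In all, 16 members were lower and 9 higher in every FOXRED1 control library than in every YY2 control library, against 37.9% and 35.6% of those genes. XPC and TP53I3 did not differ beyond their spread between any neighbouring groups in their order.

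**Figure D5:**
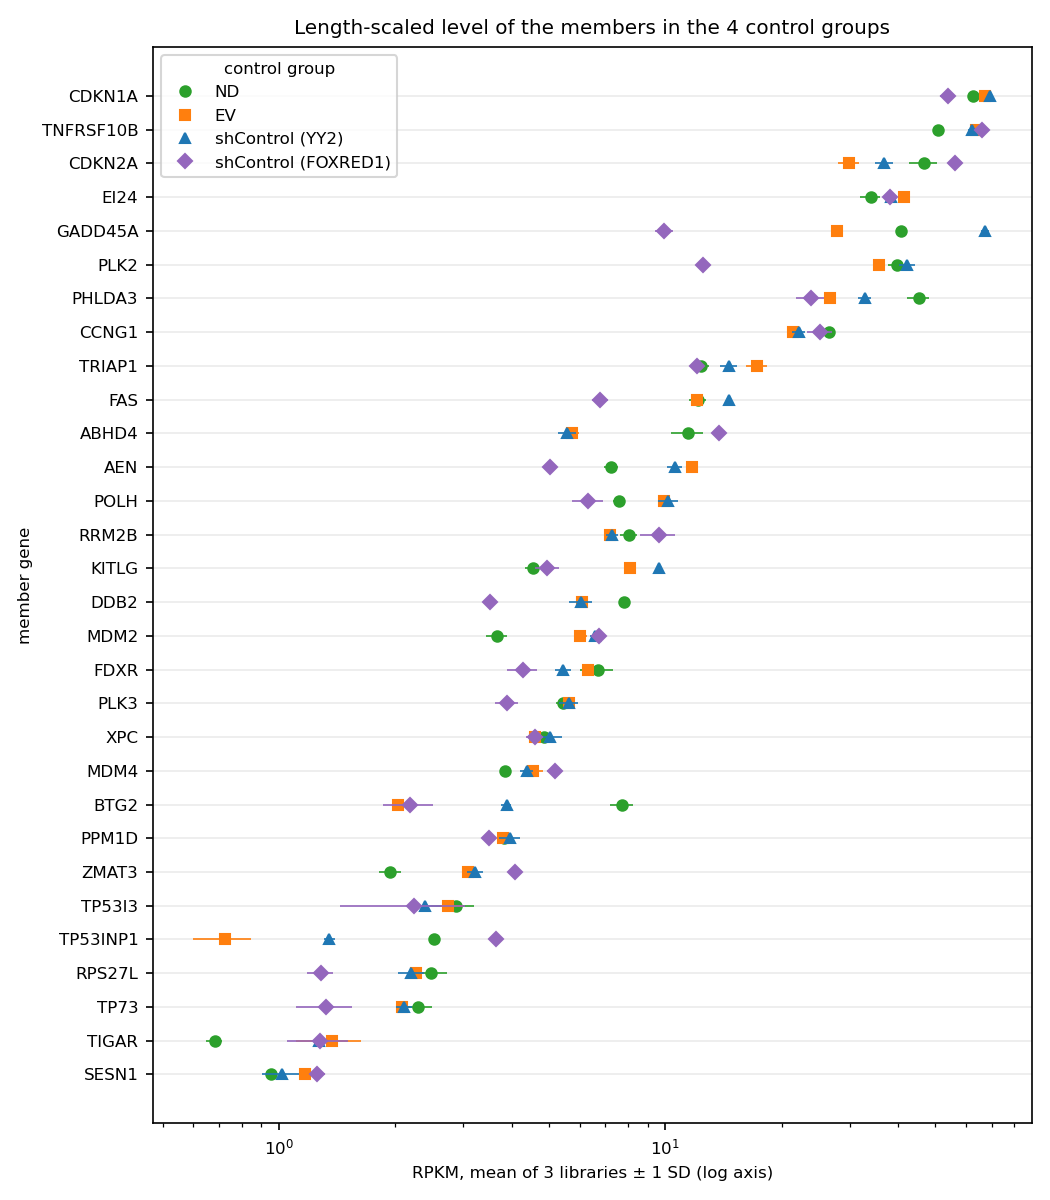
Level of the 30 members (rows, ordered by mean level) in the 4 control groups, as the mean RPKM of 3 libraries with 1 SD on a log axis. GADD45A, PLK2, BTG2 and TP53INP1 show the widest gaps between groups, and XPC and PPM1D the narrowest.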

How the data were processed

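Poly-A RNA of 24 OE33 libraries was sequenced by the study in paired-end mode (DNBSEQ-T7). The authors deposited 4 tables of raw gene counts by Ensembl identifier, 6 libraries each. The submitters' processing notes name the builds hg38 and mm10 with no role. The aligner, counter, annotation and strand setting are not given in the sources used here. Neither is whether replicates are separate cultures, or separate tumors in the diet experiment, so p-values measure the spread between these libraries. Of the 61860 identifiers, 99.8% had a symbol in the GENCODE 29 and HGNC tables. Each experiment was fitted on its own with edgeR 4.0.16 (R 4.3.3): filterByExpr with a minimum count of 10 and a total of 15, TMM scaling, a quasi-likelihood test and Benjamini-Hochberg adjustment. The steps were tested on simulated data, where the share of false calls came out above the 0.05 threshold and small changes were recovered only in part. Differences between experiments came from 1 fit over all 24 libraries. Alternatives were DESeq2 1.42.0 size factors and Wald test, no count filter, at least 10 counts in every library, a replicate block, a 1.5-fold limit and leaving out each library.

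The members and lists were chosen with earlier results of these data known. Named genes are CDKN1A, MDM2 and TP73 in each comparison, up to 10 further called members with the largest absolute log2 fold change, no overlap between groups and a mean of 1 CPM or more, and up to 4 genes a further list by the same limits. Of the genes so named in the further lists, 1 is not reported here. Totals of 14299807 to 45994561 counts set the precision. The 37 mitochondrially encoded genes had 0 counts. Promoter windows were taken from RefSeq (GRCh38.p14), and exonic lengths and overlaps from GENCODE 29.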

Additional observations from a re-analysis of the deposited data

Results flagged for a closer look

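Members called in opposite directions in 2 experiments, with a tested difference between the effects, are listed here by that difference in log2 fold change. Their values by library stand in the report. The differences between HFD and shYY2, HFD and shFOXRED1, and HA-TRIM15 and shFOXRED1 were not tested, so the list leaves those pairs out. CDKN1A and MDM2, among others, were called in opposite directions in them. For shYY2 minus shFOXRED1 these were DDB2 (1.44 ± 0.09), RRM2B (0.84 ± 0.09) and TNFRSF10B (-0.92 ± 0.05). For HA-TRIM15 minus shYY2 they were AEN (2.41 ± 0.10), GADD45A (1.95 ± 0.07), TNFRSF10B (0.87 ± 0.05), CDKN1A (0.79 ± 0.06), MDM2 (0.75 ± 0.07) and FDXR (-0.81 ± 0.12). The HA-TRIM15 calls of AEN and FDXR were each lost when any of 5 of the 6 libraries was left out and under DESeq2's Wald test. For HFD minus HA-TRIM15 it was AEN (-0.23 ± 0.08), which rests on the calls -0.12 ± 0.05 and 0.12 ± 0.04, each lost in most fits that left out 1 library. With 3 libraries a group, no single library was tested as an outlier.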

How the results depend on the processing

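Of the members' log2 fold changes, none that was called changed sign under any of the alternatives run. The counts of members called depended most on a fold limit: with at least 1.5-fold required beside the adjusted p, 4 members were higher and 0 lower in HFD tumors, 1 higher and 0 lower with HA-TRIM15, 5 higher and 9 lower with shYY2, and 1 higher and 1 lower with shFOXRED1. The 1 member lower with HA-TRIM15 became 2 with no filter on counts and 0 with DESeq2's Wald test. Leaving out 1 library at a time gave 12 to 13 higher and 5 to 8 lower in HFD tumors, 6 to 9 higher and 0 to 2 lower with HA-TRIM15, 12 higher and 12 to 13 lower with shYY2, and 5 to 7 higher and 7 to 10 lower with shFOXRED1. DESeq2 size factors, stricter filters and, for the differences between experiments, a fit over only the 12 libraries concerned left the other counts within 1.5 times. In the HFD tumors the calls of TIGAR, AEN and PPM1D, and with HA-TRIM15 those of TP53INP1, AEN and FDXR, were lost under DESeq2's Wald test. With shFOXRED1 that test lost the call of PHLDA3 (0.41) and made one of EI24 (-0.16).

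Libraries of the 2 groups that share a replicate number did not deviate together: their correlations lay between -0.05 and 0.16, and in no experiment were all 3 over 0.1, so the numbers were not taken to pair the libraries. With a replicate block, 13 members were higher and 7 lower in HFD tumors, 8 higher and 1 lower with HA-TRIM15, 12 and 12 with shYY2, and 7 higher and 10 lower with shFOXRED1.

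With 3 libraries against 3, an exact permutation test of 1 gene cannot go below p = 0.1, so the calls rest on the spread pooled over genes. TIGAR, SESN1 and TP53I3, with under 11 CPM in every library, are the members that depth limits in all groups. In single groups it also limits TP53INP1 and BTG2. TP53INP1 had 64, 98 and 116 counts with EV, and BTG2 had 124, 91 and 75 counts in the FOXRED1 control.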
